A study of Mus musculus with 20 samples.

Results

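Stra6, Flnc, Grem1 and Lgals7 are 4 genes, of 54532 in each deposited count table, that were picked by their counts in normal mouse liver: all 4 had 0 counts in both control libraries. They were followed through colorectal liver metastases (CRLM) of growing size and through myeloid cells sorted from such metastases, as a possible measure of how much tumor a library holds. Because the values in normal liver chose the genes, the step from normal liver to metastasis is given as a description with no test, and the tests given compare libraries other than normal liver. Their results were not unknown when the genes were picked.

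Stra6 is the cell-surface receptor for retinol-binding protein and moves vitamin A into cells. Filamin C, the product of Flnc, crosslinks actin and is best known from the contractile apparatus of heart and skeletal muscle. Gremlin 1 is secreted and binds bone morphogenetic proteins (BMPs), so that they cannot reach their receptors; in the gut it is made by stromal cells around the crypts. Galectin-7, the product of Lgals7, binds beta-galactosides and is typical of stratified epithelia such as epidermis. The liver itself stores vitamin A in stellate cells, sends it out with Rbp4 and Ttr from hepatocytes, and uses BMP signals to set the iron hormone hepcidin (Hamp).

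All mice were C57BL/6 of wild-type genotype. Normal liver (con, 2 libraries) came from mice given normal saline and taken at day 0, and every other group had received 1000000 Mc38 cells, a colon adenocarcinoma line of the same strain, through the spleen and portal vein. Tumor-free liver remote from the metastases (L-con, 1 library) was taken at 12 days post-injection (dpi), low-content tumor (Lt, 2 libraries) and medium-content tumor Mt3 (2 libraries) at 9 dpi, medium-content tumor Mt2 and Mt1 (2 libraries each) at 11 dpi, and high-content tumor (Ht, 3 libraries) at 12 dpi. F4/80+ and CD11b+ cells (3 libraries each) were taken with microbeads from Mt2 metastases at 11 dpi. The bulk libraries held 16032085 to 18246623 counts in tissue and 17785496 to 20548370 in sorted cells, where 3 counts, the floor used below, correspond to 0.146 to 0.187 CPM (counts per 1000000 counts of the library).

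Some libraries go against what is said of them. The labels of the tissue libraries give male mice, the study's methods give females, and the labels of the sorted cells give no sex. Ddx3y, a gene of the Y chromosome, had 348 to 1421 counts in the tissue libraries and 0 in all 6 sorted libraries. Xist, which is transcribed from the inactive X chromosome, had 0 to 3 counts in tissue and 5547 to 21805 in the sorted cells. The hosts of both tables thus differed in these genes, and a difference between the tables cannot be told apart from one between the hosts or between whole tissue and isolated cells. The methods call Ht_1 and Ht_3 identical, and their counts were therefore summed to 1 sample in the main fits, which leaves 2 Ht samples. Alternative fits kept Ht as 3 libraries or left Ht_3 out. The counts of Ht_1 and Ht_3 differed by more than sampling noise. The chi-square over 15284 genes was 30.3 times its degrees of freedom, against 29.1 for Ht_1 with Ht_2 and 13.2 for Ht_2 with Ht_3. This measure weighs counting noise only. The methods state that the squared Pearson correlation of Ht_1 with Ht_3 exceeded a higher limit than that of biological replicates.

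In the deposited tables Stra6 is ENSMUSG00000032327 (GRCm38 chr9:58063788-58153996, plus strand, 5829 bases of exons), Flnc is ENSMUSG00000068699 (chr6:29433256-29461883, plus strand, 9402 bases), Grem1 is ENSMUSG00000074934 (chr2:113746164-113758646, minus strand, 4148 bases) and Lgals7 is ENSMUSG00000053522 (chr7:28863853-28866284, plus strand, 927 bases). Each name belongs to 1 protein-coding gene. The spans of Flnc and Grem1 overlap no other gene. Stra6 overlaps Ccdc33 and Gm16131, whose counts reached at most 2 in any library, and Lgals7 overlaps the antisense gene Gm10648, whose counts reached at most 7. The sources do not state that reads were counted by strand, so reads of Lgals7 and Gm10648 cannot be told apart where they overlap. All 4 genes passed the filter on low counts in the tissue fit, the sorted-cell fit and the joint fit of both tables.

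The choice can be placed among all genes. In normal liver 34057 genes had 0 counts in both libraries, and 238 of these reached a mean of at least 1 CPM in the 3 Ht libraries, where CPM here and below is scaled by the trimmed mean of M-values (TMM). Ordered by that mean, Stra6 (241 CPM), Flnc (197) and Lgals7 (109.7) led and Apod (81.2 CPM) stood between them and Grem1 (75.9), which had rank 5. Next came Pcdh19 (70.6 CPM) and Osr2 (69.3 CPM). The order is one of CPM, which also grows with transcript length. Just outside the rule, with 1 to 3 counts in normal liver, Vcan had 660 CPM in Ht (659.6, 2 counts in con), Fcrls 104.6 (1 count), Sorcs2 98.9 (3 counts) and Hmga2 79.5 (2 counts).

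Stra6 had 0 counts in both con libraries and 5.64 CPM in L-con. The Lt libraries had 26.1 and 72.3 CPM, Mt3 54.0 and 70.8, Mt2 94.8 and 182, Mt1 109.1 and 189, and Ht 238, 234 and 252. Every tumor library was above L-con, every Ht library was above every other tissue library, and the second replicate of Lt was as high as the Mt3 libraries. In the sorted cells Stra6 had 18.8, 25.2 and 31.5 CPM (F4/80+) and 16.2, 12.97 and 6.22 CPM (CD11b+). The lowest F4/80+ library was thus above the highest CD11b+ library, and the F4/80+ range reached into that of Lt.

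Flnc had 0 counts in both con libraries and 9.70 CPM in L-con. The Lt libraries had 25.7 and 64.9 CPM, Mt3 48.7 and 53.1, Mt2 82.4 and 149, Mt1 101 and 150.4, and Ht 189, 192 and 209. As for Stra6, the Ht libraries lay above all others. The sorted cells had 18.5, 21.6 and 23.7 CPM (F4/80+) and 16.0, 11.8 and 4.38 CPM (CD11b+), with no overlap between them.

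Grem1 had 0 counts in both con libraries, 5.20 CPM in L-con, and 23.3 and 46.7 CPM in Lt. Mt3 had 36.8 and 39.8 CPM, Mt2 46.5 and 85.1, Mt1 49.8 and 81.7, and Ht 71.4, 77.3 and 79.1. Here the second replicates of Mt2 and Mt1 were higher than all 3 Ht libraries, so Ht did not stand above the other groups. Scaled by library totals they were at 110.5 and 109.4 CPM and the Ht libraries at 105.6, 113 and 119.6, so the ranges overlapped there too. In the sorted cells Grem1 was at 3.35, 5.17 and 4.28 CPM (F4/80+) and 2.23, 2.12 and 1.01 CPM (CD11b+). The F4/80+ values lay above those of all CD11b+ libraries.

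Lgals7 had 0 counts in both con libraries, 3.70 CPM in L-con, and 21.0 and 45.8 CPM in Lt. Mt3 had 26.5 and 38.5 CPM, Mt2 46.8 and 95.9, Mt1 54.1 and 77.7, and Ht 139.9, 91.5 and 97.5. Ht_1 stood apart from both other Ht libraries, and the highest Mt2 library overlapped the Ht range. The sorted cells had 5.16, 6.42 and 6.45 CPM (F4/80+) and 6.20, 3.55 and 10.2 CPM (CD11b+). CD11b+_3, the library with the least Stra6, Flnc and Grem1, had the most Lgals7 of all sorted libraries.

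**Figure D1:**
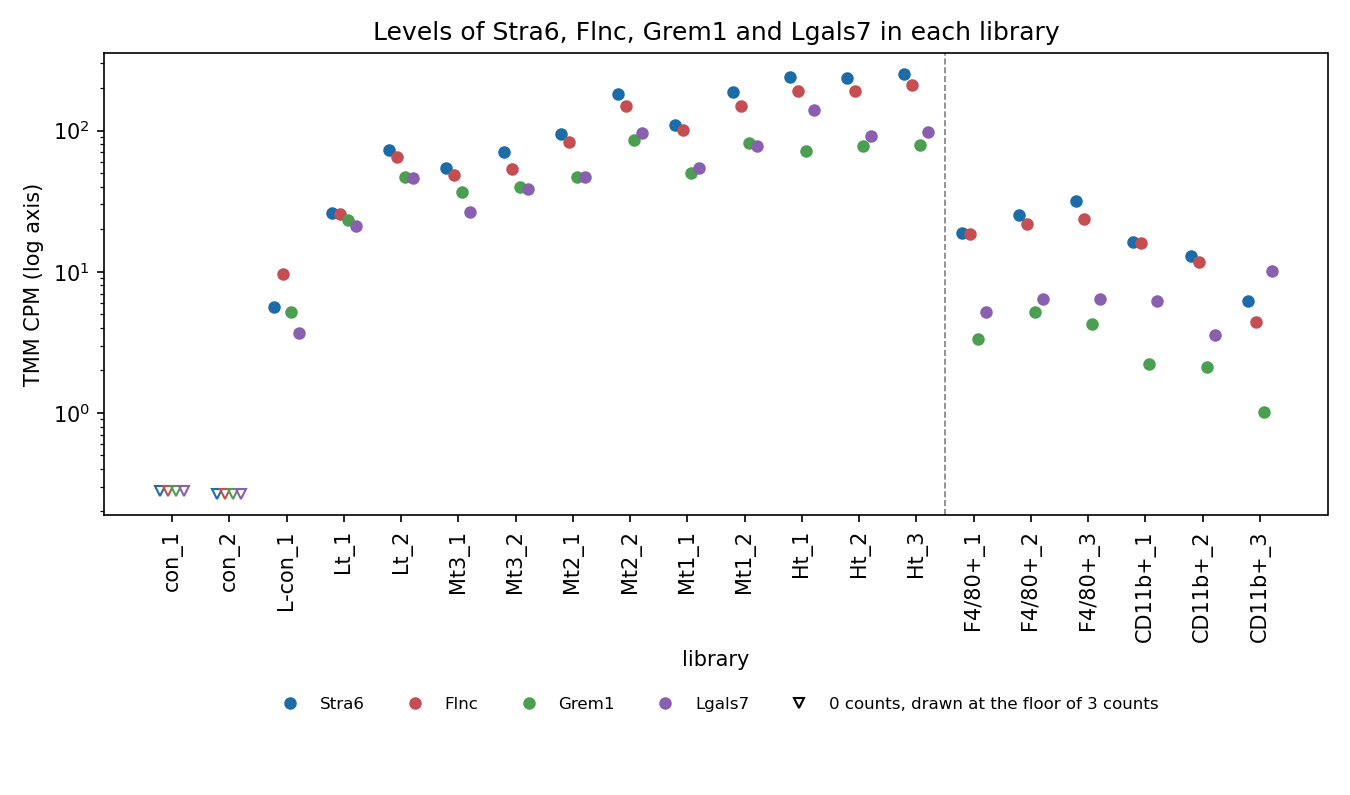
Level of each gene in each library, as TMM CPM on a log axis; each point is 1 library, and open triangles mark 0 counts, drawn at the floor of 3 counts. Stra6 climbs from 5.64 CPM in L-con to 252 in Ht_3, whereas Grem1 reaches its highest value, 85.1 CPM, in Mt2_2; the dashed line separates tissue from sorted cells.

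By group means, Stra6 was ordered Ht (240 ± 7.26 CPM, SD, n = 2; 239.6 before rounding), Mt1 (149 ± 56.2, n = 2), Mt2 (138 ± 61.5, n = 2), Mt3 (62.4 ± 11.9, n = 2), Lt (49.2 ± 32.6, n = 2), F4/80+ cells (25.2 ± 6.31, n = 3), CD11b+ cells (11.8 ± 5.11, n = 3), L-con and con. Mt1 and Mt2, Mt3 and Lt, and Lt and F4/80+ cells differed by less than the larger of their SDs. Flnc had the same order, and in addition CD11b+ cells and L-con lay within the spread. For Grem1, Ht (76.3 ± 1.43 CPM, n = 2) and Mt2 (65.8 ± 27.3, n = 2) also differed by less than the SD, as did Mt2 and Mt1 (65.8 ± 22.6, n = 2) and Mt3 and Lt. For Lgals7, Ht (105 ± 19.2 CPM, n = 2), Mt2 (71.3 ± 34.7, n = 2) and Mt1 (65.9 ± 16.7, n = 2) each lay within the SD of its neighbour, and so did Lt and Mt3, and CD11b+ and F4/80+ cells.

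Per length, Lgals7 was the most abundant of the 4 in Ht, at 168 ± 32.8 FPKM (counts scaled by depth and by gene length, SD, n = 2), against 60.9 ± 2.71 FPKM for Stra6, 30.8 ± 1.24 for Flnc and 27.2 ± 0.121 for Grem1. Lgals7 is the shortest of the 4 and Flnc the longest, so the order by FPKM differs from that by CPM. Against the larger floor of the con libraries, 0.280 TMM CPM for 3 counts in a library, the lowest Ht sample was at least 836-fold higher for Stra6, at least 684.65-fold for Flnc, at least 268-fold for Grem1 and at least 326-fold for Lgals7. For these bounds Ht_1 and Ht_3 were averaged to 1 sample. Ht_1 alone lay below the lowest sample for Flnc (189 CPM) and Grem1 (71.4 CPM). These bounds describe how the genes were picked. As in any bulk library, more tumor cells and more RNA of a gene per tumor cell cannot be told apart.

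The first question the design poses is whether the genes go on rising once tumor is present, from Lt at 9 dpi to Ht at 12 dpi. Tumor content and day after injection change together here and cannot be told apart. Stra6, Flnc and Lgals7 were higher in Ht by edgeR (quasi-likelihood F test, p adjusted by Benjamini-Hochberg over the 17187 genes tested). Here and below a gene is called if its adjusted p does not exceed 0.05 and its log2 fold change is 1 or more in either direction. Stra6 rose by 2.26 ± 0.52 (log2 fold change ± SE, adjusted p = 0.0101), Flnc by 2.09 ± 0.45 (adjusted p = 0.00824) and Lgals7 by 1.63 ± 0.45 (adjusted p = 0.0209). Grem1 was at 1.10 ± 0.39 with an adjusted p of 0.0512 and was not called, although all 3 Ht libraries lay above both Lt libraries for each of the 4 genes. So 3 of 4 were called higher, against 11.7% of all genes called higher and 20.2% called lower in this comparison; since the genes were chosen with these metastases known, that share is not read as a result about them.

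The calls rest on few libraries, and on scaling. Without Lt_1 the log2 fold change of Stra6 was 1.72 (adjusted p = 0.0520) and that of Lgals7 1.19 (adjusted p = 0.122). Lgals7 also lost its call without Ht_2 (1.81, adjusted p = 0.0523) and without the sum of Ht_1 and Ht_3 (1.43, adjusted p = 0.0944). Without Lt_2 Grem1 was called (1.70, adjusted p = 0.0194). Across all settings run the adjusted p had a range of 1.22e-15 to 0.0520 for Stra6, 1.43e-14 to 0.0423 for Flnc, 5.90e-06 to 0.256 for Grem1 and 5.17e-11 to 0.122 for Lgals7; Flnc was called in 14 of 14 settings, at 1.58 without Lt_1 and 2.92 without Lt_2. With the replicate number as a block, edgeR called Grem1 (1.19, adjusted p = 0.00865). With library totals in place of TMM, Grem1 was called as well (1.95, adjusted p = 0.0162). Under that scaling the median over all genes was 0.87 in place of -0.01, and it turned 2004 genes higher and 3476 lower (36.6% higher) into 6216 higher and 2081 lower (74.9% higher). Relative to the median, the shift of the 4 genes was thus little changed.

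From Lt to Mt, the mean of Mt3, Mt2 and Mt1, none of the 4 genes was called by edgeR, nor was any other gene: 0% of genes were called higher. Mt joins samples of 9 dpi (Mt3) and of 11 dpi (Mt2 and Mt1). The log2 fold changes were 1.12 ± 0.43 for Stra6 (adjusted p = 0.232), 0.98 ± 0.38 for Flnc (adjusted p = 0.232), 0.63 ± 0.33 for Grem1 (adjusted p = 0.318) and 0.66 ± 0.38 for Lgals7 (adjusted p = 0.347). Of all genes 3282 had an unadjusted p under 0.05, among them Stra6 and Flnc, and DESeq2 called 242 genes, none of them among the 4. The values hang on the Lt libraries: without Lt_1 they were 0.59 for Stra6, 0.48 for Flnc, 0.23 for Grem1 and 0.22 for Lgals7, and without Lt_2 2.04, 1.81, 1.23 and 1.34, with no call in either case. Lt_1 was the lowest tumor library for all 4 genes and Lt_2 lay above both Mt3 libraries for each of them, so the groups overlap.

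From Mt to Ht, Flnc was called higher, with a log2 fold change of 1.11 ± 0.33 (edgeR, adjusted p = 0.0466). Stra6 was at 1.14 ± 0.38 (adjusted p = 0.0625), Lgals7 at 0.97 ± 0.34 (adjusted p = 0.0729) and Grem1 at 0.47 ± 0.31 (adjusted p = 0.280). The 1 call among 4 stands beside 1.5% of all genes called higher (257 of 17187). As from Lt to Ht, the genes were chosen with these metastases known, and that share is not read as a result about them. The Ht and Mt libraries did not overlap for Stra6 and Flnc and did for Grem1 and Lgals7. Without Ht_2, or without the sum of Ht_1 and Ht_3, no gene at all was called in this comparison (Flnc 1.14, adjusted p = 0.192, and 1.08, adjusted p = 0.226). Flnc also lost its call without Mt3_1 (1.09), Mt3_2 (1.13), Mt2_1 (1.02) or Mt1_1 (1.03), and its adjusted p ran from 4.86e-08 to 0.226 over all settings. Stra6 gained one without Mt2_2 (1.32, adjusted p = 0.0251) or Mt1_2 (1.29, adjusted p = 0.0499), and Lgals7 without Mt2_2 (1.17, adjusted p = 0.0201); their adjusted p ran from 6.66e-08 to 0.257 and from 3.49e-07 to 0.349. With library totals 2587 genes were higher and 1773 lower (59.3% higher) in place of 257 and 2306 (10.0% higher), the median of all genes was at 0.55, and Stra6 (1.64), Flnc (1.62) and Lgals7 (1.48) were all called. With the replicate number as a block, edgeR called Stra6 (1.23, adjusted p = 0.0123) and Lgals7 (1.07, adjusted p = 0.0201) besides Flnc. Whether Grem1 differs from the other 3 genes in its change was not tested.

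Read as a tumor content index, each gene's CPM was expressed as a percentage of its mean in Ht, and the median of the 4 was taken for each library. L-con stood at 4.24%, Lt at 16.5% and 38.4%, Mt3 at 25.1% and 33.1%, Mt2 at 43.3% and 83.7%, and Mt1 at 51.6% and 77.8%. Within Lt, Mt2 and Mt1 the replicates lay far apart, so that Lt enclosed Mt3 and Mt2 enclosed Mt1, and the second replicate was the higher one in all 4 tumor groups of 2 libraries. Every library of 9 dpi (Lt and Mt3) lay below every library of 11 dpi (Mt2 and Mt1). Groups of the same day overlapped, so the index cannot tell tumor content apart from day after injection. The 4 genes did not give 1 value: in Lt_1 the lowest gene, Stra6, stood at 10.9% and the highest, Grem1, at 30.5%, and in Mt2_2 the range was 75.9% to 111.6%. On library totals the index was lower, 1.94% for L-con, 8.06% and 23.2% for Lt, 13.3% and 18.9% for Mt3, 25.7% and 73.4% for Mt2, and 35.1% and 70.3% for Mt1. The order of the tissue libraries by the median was the same on both scales in these libraries, with Mt2_2 above Mt1_2.

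Hepatocyte genes ran the other way. The geometric mean of 13 hepatocyte markers, as a percentage of con, was 93.5% for L-con, 98.7% and 62.2% for Lt, 72.5% and 67.5% for Mt3, 61.2% and 16.2% for Mt2, 46.8% and 14.4% for Mt1, and 2.16%, 3.12% and 2.37% for Ht. By library totals it was higher in the tumor-rich libraries, with 32.1% in Mt2_2, 29.4% in Mt1_2 and 4.87%, 6.95% and 5.46% in Ht. The libraries with the highest index among the medium-content tumors, Mt2_2 and Mt1_2, were also those with the least hepatocyte RNA. All 13 markers were called lower from Lt to Ht (median log2 fold change -5.15, against -0.01 for all genes tested), Alb among them at -5.17. Alb was the most abundant marker of the list in each tissue library, and none of the 13 was at 0 there.

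Genes of the Y chromosome (Ddx3y, Kdm5d, Uty and Eif2s3y) are no genes of liver function and were read beside the hepatocyte markers; the last 3 were added after values had been seen. Their median, as a percentage of con, was 111.3% for L-con, 87.4% and 69.3% for Lt, 84.8% and 76.0% for Mt3, 64.5% and 28.6% for Mt2, 54.4% and 32.5% for Mt1, and 18.1%, 22.2% and 17.0% for Ht. Ddx3y fell by 2.27 ± 0.46 on the log2 scale from Lt to Ht (adjusted p = 0.0054). Relative to con, Ht therefore kept more Y-linked RNA than hepatocyte RNA, and the 4 Y-linked genes differed from each other: in Ht_1 Ddx3y stood at 11.8% and Kdm5d at 35.2%. On library totals the median was 95.8% and 94.2% in Lt and 40.7%, 49.5% and 39.2% in Ht, and in Ht_1 Kdm5d stood at 78.9% and Ddx3y at 26.6%. Whether Mc38 cells carry Y-linked genes was not tested.

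**Figure D2:**
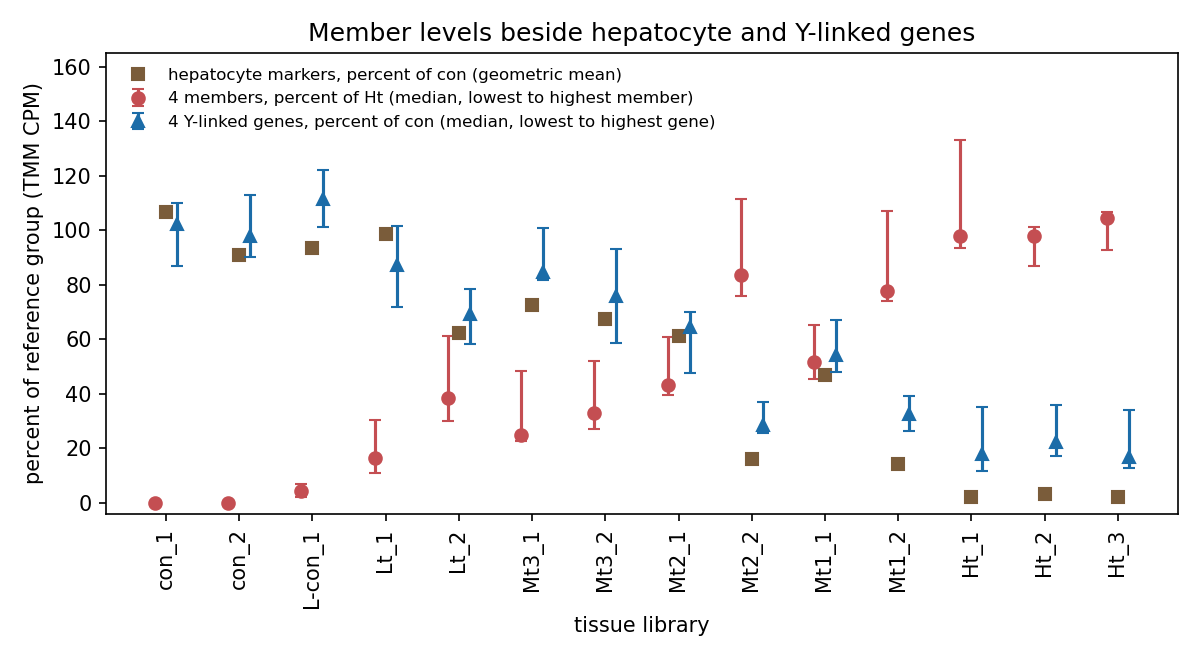
Median of Stra6, Flnc, Grem1 and Lgals7 as a percentage of their Ht means (circles), geometric mean of 13 hepatocyte markers (squares) and median of 4 Y-linked genes (triangles), both as a percentage of con, in each tissue library; bars run from the lowest to the highest gene. Mt2_2 and Mt1_2 join a high index (83.7% and 77.8%) with low hepatocyte values (16.2% and 14.4%).

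Markers of stromal and dividing cells were read beside the 4 genes. The summed level of 13 fibroblast and stellate markers was 560 and 430 CPM in con (560.4 and 430.5), 825 in L-con, 1800 and 3328 in Lt (1799.8 for the first), 2539 and 2961 for Mt3, 3671 and 5857 for Mt2, 3823 and 7446 for Mt1, and 6575, 6631 and 8374 for Ht. Col3a1 was its most abundant gene in every Lt and Ht library, at 4647 CPM in Ht_2. From Lt to Ht 5 of the 13 were called higher, among them Fap (2.24, adjusted p = 0.0107) and Col1a1 (1.92, adjusted p = 0.0267), and 3 lower, with a median of 0.65 (6 higher, 2 lower and 1.496 with library totals). Over all genes 11.7% were called higher and 20.2% lower. The share of Grem1, or of any of the others, that came from stromal cells was not tested. Of 14 cell cycle markers 13 were called higher from Lt to Ht (median 1.61) and none lower.

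The remaining lists of cell types are given for Lt to Ht beside the 11.7% of all genes called higher and 20.2% called lower. Of 13 macrophage markers 2 were called higher and 4 lower, of 11 endothelial markers 0 and 3, of 10 smooth muscle and pericyte markers 1 and 2, of 8 neutrophil markers tested 0 and 1, and of 9 lymphocyte markers 0 and 1. Their medians were 0.78, -0.66, -0.09, -0.39 and 0.39. With library totals the median of all genes moved from -0.01 to 0.87. The medians of the endothelial, smooth muscle and neutrophil lists then turned positive (0.24, 0.86 and 0.49), which is not read as a result about these lists. That scaling also moved the calls, to 9 higher and 4 lower macrophage markers, 1 and 2 endothelial, 1 and 0 smooth muscle, 0 and 1 neutrophil and 1 and 0 lymphocyte markers, where 6216 of all 17187 genes were higher and 2081 lower. Flnc is known from striated muscle, but the 13 striated muscle markers summed to 2.93, 2.06 and 3.33 CPM in the Ht libraries, with 8, 6 and 7 of them at 0 counts and Tnni2 the most abundant, and 4 were tested, 1 called higher and 1 lower. Lgals7 is known from stratified epithelium, whose 14 markers summed to 7.09, 6.24 and 7.64 CPM in the Ht libraries with 7, 6 and 8 at 0 counts, and of 5 tested 1 was called higher and 1 lower: Krt5 was at 0 and Krt14 at 0.564 CPM in Ht, while Trp63 rose (3.64, adjusted p = 0.0047) to 2.76 CPM. The part of either cell type in the values of Flnc and Lgals7 was not tested.

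The shares of the 4 genes in their summed counts show how far they kept a fixed ratio. Grem1 made up 21.5% of them in L-con, 24.2% in Lt_1 (95% Wilson interval 21.9% to 26.6%), 20.3% in Lt_2, 22.2% and 19.7% in Mt3, 17.2% and 16.6% of them in Mt2, 15.8% and 16.4% for Mt1, and 11.2%, 12.98% and 12.4% for Ht. Its share was thus lower in every Ht library than in Mt2 and Mt1, and lower in these than in Lt and Mt3, but it did not follow the index library by library. Stra6 made up 27.2% in Lt_1 and 37.2%, 39.4% and 39.5% in Ht. In the sorted cells Grem1 made up only 4.62% to 8.85%. Lgals7 made up 15.3% and 15.4% in Ht_3 and Ht_2 and 21.9% in Ht_1 (95% Wilson interval 21.3% to 22.6%). Intervals and floors cover counting error only, and the methods name no molecular identifiers. Differences in share between groups were not tested.

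**Figure D3:**
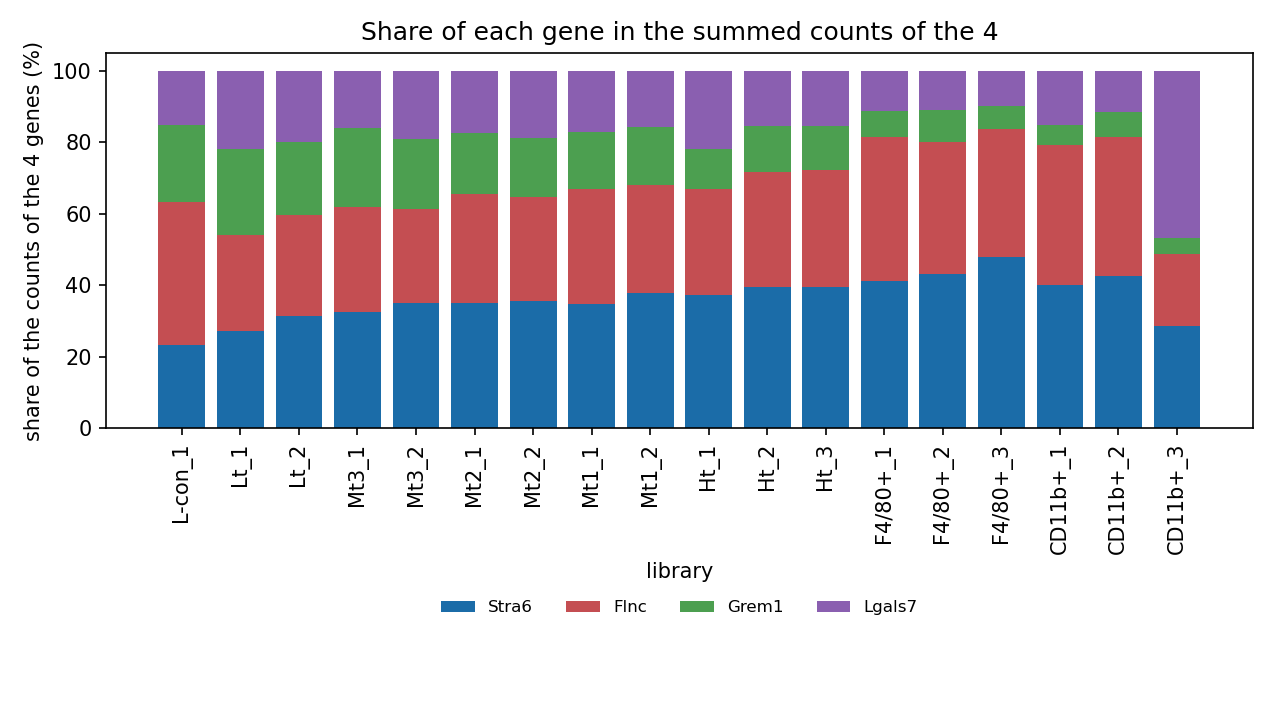
Share of Stra6, Flnc, Grem1 and Lgals7 in their summed counts, in percent, with 1 stacked bar per library that had counts of them. The share of Grem1 is highest in Lt_1 of the tissue table (24.2%) and lowest in CD11b+_3 of the sorted-cell table (4.62%, 17 counts). In CD11b+_3, a library higher for short genes than the others of its group, Lgals7 takes 46.7%.

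The sorted cells carried the antigens they were selected for. Adgre1, which encodes F4/80, had 707 to 801 CPM in F4/80+ and 518 to 559 in CD11b+ cells, against 103 and 127 in Mt2 tissue. Itgam, which encodes CD11b, had 250 to 302 CPM (249.6 the lowest) in F4/80+ and 357 to 448 in CD11b+ cells, against 11.8 and 36.8. Neither was called from CD11b+ to F4/80+ cells. The log2 fold changes were 0.42 for Adgre1 (edgeR, adjusted p = 0.427) and -0.59 for Itgam (adjusted p = 0.300). The 13 macrophage markers summed to 14926 to 17200 CPM in F4/80+ cells (17199.7 the highest) and 12967 to 20654 in CD11b+ cells, against 1715 and 1970 in Mt2 tissue (1970.1), with C1qb or C1qa the most abundant gene. In F4/80+ cells 10 of them were called higher than in Mt2 tissue and none lower, and in CD11b+ cells 9 were higher and 4, known from the liver's resident macrophages, lower: Clec4f (-2.89), Vsig4 (-2.05), Marco (-1.92) and Timd4 (-1.66). Of 9 neutrophil markers 7 were called higher than in Mt2 tissue in F4/80+ cells and 9 in CD11b+ cells, and none lower. Their medians were 3.76 and 6.92, against 3.03 and 3.07 for the macrophage markers. Of all 18407 genes 3162 and 3235 were called higher. The hepatocyte markers summed to 258 to 411 CPM in F4/80+ cells and 251 to 527 in CD11b+ cells, against 111599 and 29169 in Mt2 tissue.

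All 4 genes were nevertheless detected in all 6 sorted libraries, with 17 to 624 counts, and were lower than in Mt2 tissue. In edgeR's joint fit of both tables the log2 fold changes to F4/80+ cells were -2.46 ± 0.45 for Stra6 (adjusted p = 4.23e-04), -2.44 ± 0.45 for Flnc (adjusted p = 4.18e-04), -3.95 ± 0.37 for Grem1 (adjusted p = 1.50e-06) and -3.57 ± 0.44 for Lgals7 (adjusted p = 1.33e-05). Those to CD11b+ cells were -3.55 ± 0.47 for Stra6 (adjusted p = 2.30e-05), -3.43 ± 0.46 for Flnc (adjusted p = 2.84e-05), -5.18 ± 0.40 for Grem1 (adjusted p = 2.46e-07) and -3.44 ± 0.43 for Lgals7 (adjusted p = 1.60e-05). Every sorted library lay below both Mt2 libraries for each gene. All 4 were thus called lower in both populations, where 25.2% (F4/80+) and 26.3% (CD11b+) of the 18407 genes tested were called lower. Here too the genes were chosen with the metastases known, and that share is not read as a result about them. The calls held in 13 of 13 settings for each gene and population, but their size hangs on Mt2_2. Without it the values were -1.87, -1.91, -3.40 and -2.92 for Stra6, Flnc, Grem1 and Lgals7 in F4/80+ cells and -2.96, -2.90, -4.64 and -2.80 in CD11b+ cells.

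As a percentage of Ht, the median of the 4 genes was 6.38%, 8.65% and 9.13% in F4/80+ cells and 6.34%, 4.39% and 2.42% in CD11b+ cells. The 13 fibroblast and stellate markers, which mark cells that neither antigen selects, summed to 372, 427 and 565 CPM in F4/80+ cells and 331, 220 and 174 in CD11b+ cells (220.2 the second), and all 13 were called lower than in Mt2 tissue in both populations. Stra6, Flnc and these markers were all lowest in CD11b+_3. Whether the counts of the 4 genes in sorted cells came from tumor or stromal cells carried through the columns, from taken-up RNA or from the myeloid cells was not tested.

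Between the sorted populations no member was called. From CD11b+ to F4/80+ cells the log2 fold changes were 1.04 ± 0.34 for Stra6 (edgeR, adjusted p = 0.388), 0.93 ± 0.40 for Flnc (adjusted p = 0.470), 1.19 ± 0.36 for Grem1 (adjusted p = 0.329) and -0.19 ± 0.37 for Lgals7 (adjusted p = 0.817). Here 0.00701% of the 14263 genes tested were called higher and 0.0701% lower. None of the endothelial, fibroblast and stellate, hepatocyte, macrophage and neutrophil markers was called. Their medians were 1.54, 0.89, 0.85, 0.38 and -3.39, and the part of these cell types in the values of the 4 genes was not tested. Stra6, Flnc and Grem1 had an unadjusted p under 0.05, as did 1503 genes in all, and DESeq2 called 300 genes but none of the 4. Without CD11b+_3 the values were 0.74, 0.57, 0.93 and 0.26 for Stra6, Flnc, Grem1 and Lgals7, so that Lgals7 changed its sign.

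CD11b+_3 stood apart in the length of the transcripts it held. Over genes of at least 5 CPM, the median log2 ratio of this library to the others of its group was 0.97 for the 401 genes under 1 kb and -0.56 for the 1786 genes over 8 kb. In Ht_1 the same medians were 0.31 over 360 genes and -0.15 over 2011 genes. Both libraries were thus higher for short genes, and Lgals7, at 927 bases, was high in both, whereas Flnc, at 9402 bases, was the longest of the 4. CD11b+_3 also had the highest sum of 9 neutrophil markers, 4830 CPM (4829.6) against 1576 and 1074.5 in both other CD11b+ libraries, with S100a9 its most abundant gene. The part of transcript length and of neutrophils in the values of Lgals7 and the other 3 genes was not tested.

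Genes with the most similar profile were found over the 13 tissue samples, the con libraries included, as the root mean square difference of centred log2(CPM + 0.5) among 13927 genes. For Stra6 these were Col6a2 (0.31), Emp1 (0.39), Phgdh (0.46), Thbs1 (0.51) and Col6a1 (0.51), and Flnc was nearer than all of them (0.27). For Flnc they were Col6a2 (0.25), Emp1 (0.40), Mmp9 (0.43), Col6a1 (0.47) and Pcdh19 (0.49). Col6a1 and Col6a2 encode chains of collagen VI. For Grem1 the nearest were Il1rl1 (0.30), Ccl2 (0.31), Mmp9 (0.33), Pcdh19 (0.34) and Osr2 (0.35), and for Lgals7 they were Col6a2 (0.21), Col6a1 (0.27), Pcdh19 (0.29), Emp1 (0.29) and Osr2 (0.30). Grem1 and Lgals7 differed from each other by 0.27, and Stra6 and Grem1, the most unlike pair, by 0.56. The names depend on the pseudocount: with 0.1 in place of 0.5, 0, 1, 3 and 2 of the 5 nearest genes were shared for Stra6, Flnc, Grem1 and Lgals7. They also depend on con, whose 0 counts chose the 4 genes: in 11 samples without con, an alternative chosen after seeing the data, 2, 0, 1 and 0 were shared. The nearest genes then were Phgdh for Stra6 (0.09), the collagen gene Col5a1 for Flnc (0.07), Plod2 for Grem1 (0.09) and Lgals1 for Lgals7 (0.08), all nearer than any 2 of the 4 genes were to each other (0.27 to 0.49).

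Stra6 belongs to the genes of retinoid handling. Of 24 tested, 2 were called higher from Lt to Ht, Stra6 itself and the retinoic acid receptor Rarg (1.66, adjusted p = 0.0041), and 12 were called lower, with a median of -1.35 against -0.01 for all genes, of which 11.7% were called higher and 20.2% lower. With library totals 5 were higher and 10 lower, and the median was -0.45 against 0.87 for all genes, of which 6216 were higher and 2081 lower of 17187. The lower genes included the liver's own carriers Rbp4 (-4.72) and Ttr (-5.75), Aldh1a1 (-4.05), which makes retinoic acid, Lrat (-2.12), which esterifies retinol in stellate cells, and Cyp26a1 (-4.46), which degrades retinoic acid. Stra6l, the related retinol receptor of liver, fell by 4.54 from Lt to Ht (adjusted p = 0.0030). Its mean level was 286 CPM in con and 10.0 in Ht. Ttr and Lrat also stand in the hepatocyte and stellate lists. All 13 hepatocyte markers fell as well, and their part in this result was not tested.

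Among filamins and their partners 7 of 18 genes tested were called higher from Lt to Ht and 3 lower, with a median of 0.94, against 11.7% higher, 20.2% lower and a median of -0.01 over all genes. With library totals 10 were higher and 1 lower (median 1.81), against 6216 and 2081 of 17187 genes (median 0.87). Besides Flnc they included filamin A (Flna, 1.59, adjusted p = 0.0125) and the crosslinker Actn1 (1.62, adjusted p = 0.0038). Flna went from 47.1 CPM in con to 621 in Ht and was at 759, 752 and 935 CPM in F4/80+ cells and 913, 1223 and 424 CPM in CD11b+ cells. All sorted libraries but CD11b+_3 were thus above the Ht mean for Flna, whereas all were below it for Flnc. Xirp1, Ldb3 and Myoz1, genes of this list known from the muscle Z-disc, were picked for naming after their values were seen. Xirp1 fell by 4.93 (adjusted p = 0.0043) from 2.26 CPM in Lt. Ldb3 was also called lower (adjusted p = 0.0388), from 0.624 CPM in Lt, and Myoz1 was at 0.343 CPM in Ht. Whether Z-disc genes that bind filamin C were scarce as a group was not tested.

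For Grem1, the BMP pathway is taken by role. Of 10 genes tested from the list of BMP ligands 1 was called higher from Lt to Ht, Bmp4 (1.02, adjusted p = 0.0144), and 5 lower, led by Gdf2 (-3.20), which stellate cells secrete as BMP9, and Bmp7 (-2.73). Bmp1, the most abundant gene of this list, is a procollagen proteinase and no ligand, and was not called (0.26, adjusted p = 0.307). Of 12 antagonists 2 were called higher, Fstl3 (1.84, adjusted p = 0.0039) and Fstl1 (1.19, adjusted p = 0.0385), and 2 lower, among them Chrdl1 (-3.29). Of 12 receptors and co-receptors Rgma (2.05) and Rgmb (2.03) were higher and 3 lower, with Hfe2 (hemojuvelin) at -4.25. Of 14 signal transducers and targets 2 were higher, Msx1 (1.75) and Smad5 (1.39), and 7 lower, among them Id2 (-2.67), Id3 (-1.40), Smad9 (-4.77) and Hamp (-6.00). The medians of these 4 lists were -0.82, -0.12, 0.15 and -1.08. With library totals they were 0.09, 0.77, 1.03 and -0.17, and the median of all genes was 0.87 in place of -0.01. The medians of ligands and antagonists thus turned positive together with a shift of all genes. The calls became 3 higher and 4 lower ligands, 4 and 1 antagonists, 6 and 1 receptors, and 4 and 5 transducers and targets. Over all genes 11.7% were called higher and 20.2% lower, and with library totals 6216 and 2081 of 17187, so several of these counts lie near the share of all genes. Several of the lower genes are products of hepatocytes or other liver cells. All 13 hepatocyte markers were called lower as well. Of 13 fibroblast and stellate markers 5 were called higher and 3 lower, and of 11 endothelial markers 0 and 3. The part of these changes in the values of the BMP genes was not tested.

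Among 8 genes tested from the galectin list, which also holds the galectin-binding protein Lgals3bp (0.39, adjusted p = 0.175), 2 were called higher from Lt to Ht, Lgals7 and Lgals1 (1.72, adjusted p = 0.0343), and 2 lower, Lgals8 (-1.58, adjusted p = 0.0035) and Lgals9 (-1.79, adjusted p = 0.0089); with library totals 4 were higher and none lower. Over all genes 11.7% were higher and 20.2% lower, and with library totals 6216 and 2081 of 17187, so these few genes stand near the share of all genes. Lgals1 was at 23.5 CPM in con, 732 in Lt and 2449 in Ht. It was also at 464 CPM in F4/80+ and 595 in CD11b+ cells, and Lgals3 was at 107 CPM in Ht, 337 in F4/80+ and 439 in CD11b+ cells. Lgals3, unlike Lgals7, was thus higher in the sorted cells than in Ht.

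The upstream sequences of the 4 genes were searched for short motifs. RefSeq (GRCm38.p6) gave 8 windows of the 250 bases before a start, 4 for Stra6, 2 for Flnc, 1 for Grem1 and 1 for Lgals7. Both strands were searched for the GC box (letters GGGCGG, found in 32.7% of 32851 promoters), the TATA box (letters TATAAA, found in 12.4%), the site of activator protein 1 (letters TGANTCA, found in 6.75%), the half-site of nuclear receptors (letters AGGTCA, found in 14.02%) and the site of TEAD factors (letters GGAATG, found in 12.6%). The GC box occurred in 7 of the 8 windows: 3 matches for each Flnc start and for Grem1, the windows of Flnc overlapping and holding the same 3, 1 for Lgals7, and 1, 1, 0 and 2 for Stra6. The TATA box and the activator protein 1 site occurred in none of them, the nuclear receptor half-site once for Grem1, and the TEAD site once for Flnc; both lie on the strand opposite to the one shown. A match says only that the letters are there. Shown are the window of Grem1 (chr2:113758649-113758898, minus strand), the only start of that gene, and the Flnc window that ends at the base before the deposited gene start (chr6:29433006-29433255, plus strand), both 5′ to 3′ with matches in capitals; adjoining or overlapping matches run together.
Grem1: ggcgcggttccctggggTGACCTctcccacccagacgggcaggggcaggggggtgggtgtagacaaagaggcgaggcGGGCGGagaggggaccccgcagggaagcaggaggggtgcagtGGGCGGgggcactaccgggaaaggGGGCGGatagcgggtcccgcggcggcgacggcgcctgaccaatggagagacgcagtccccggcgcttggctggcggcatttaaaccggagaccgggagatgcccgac
Flnc: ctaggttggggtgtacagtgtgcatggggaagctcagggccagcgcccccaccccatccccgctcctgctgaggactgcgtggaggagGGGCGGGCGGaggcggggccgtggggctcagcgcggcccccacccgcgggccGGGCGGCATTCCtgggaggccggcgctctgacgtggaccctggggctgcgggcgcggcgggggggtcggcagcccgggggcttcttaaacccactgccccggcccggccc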

How the data were processed

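The authors deposited raw counts of reads per gene, 1 table for the 14 tissue libraries and 1 for the 6 sorted-cell libraries, without normalization. The submitters' processing notes name CASAVA, HISAT2 2.0.5, featureCounts 1.5.0-p3 and GRCm38. The tables share all 54532 identifiers, and 0 sample columns were unmapped. The sorted-cell table gives no gene names, so the genes were found there by the identifiers of the tissue table. Groups came from the labels, and Ht_1 and Ht_3 were summed in the main fits. Counts were scaled by TMM, filtered by filterByExpr on the groups and tested with edgeR 4.0.16 in R 4.3.3 (quasi-likelihood, Benjamini-Hochberg): tissue in 13 samples of 7 groups, sorted cells in 6 libraries, both in 19 samples of 9 groups. DESeq2 1.42.0 was an alternative. The methods describe separate livers within each tissue group except L-con, and nothing says that the sorted replicates were separate animals; p-values measure only the spread between these samples. FPKM used the deposited lengths. The 4 genes and the 18 lists (252 of 254 names matched) were chosen with earlier results of these data known. The genes named are the 4, list genes, the 5 nearest of each, genes beside the 4 in the order by Ht, and genes of sex and of the sorted antigens; which list genes at or near 0 to name was chosen after their values were seen. The fits were also run on simulated data, and no result of those runs is given here.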

Additional observations from a re-analysis of the deposited data

Results flagged for a closer look

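Tumor-free liver of the tumor-bearing mouse (L-con) had counts of all 4 genes where normal liver had 0, and as a single library it entered no comparison. Stra6 was at 5.64 CPM (64 counts, 95% Poisson interval 49.3 to 81.7), Flnc at 9.70 (110 counts), Grem1 at 5.20 (59 counts) and Lgals7 at 3.70 (42 counts). The 0 counts of normal liver chose the 4 genes, so this difference is a description with no test. Hepatocyte markers stood at 93.5% of con in this library, and the 14 cell cycle markers summed to 222 CPM, against 89.0 and 87.9 in con. Whether small metastases, circulating tumor cells or liver cells carried these counts was not tested.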

How the results depend on the processing

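Across all alternatives run, the falls of the 4 genes from Mt2 tissue to both sorted populations kept their direction and stayed called, as did Flnc from Lt to Ht. Of 429 values of the gene lists from Lt to Ht under alternatives, 346 were rated the same as in the main fit, 63 weaker and 20 stronger. The cause of these changes and of those below was not tested.

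Calls gained, as log2 fold changes: Grem1 from Lt to Ht reached 1.20 with DESeq2, 1.95 with total-count scaling, 1.23 with no filter, 1.11 with Ht as 3 libraries and 1.13 in a fit of only the groups compared. From Mt to Ht, Stra6 reached 1.19, 1.64, 1.22, 1.15 and 1.13 in these settings, and Lgals7 reached 1.03, 1.48, 1.06 and 1.03 in the first 4. From Lt to Mt, Stra6 (1.16) and Flnc (1.01) were called with no filter. Flnc from Mt to Ht lost its call with Ht_3 left out (1.07) and with Mt as a single group (1.00).

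Leaving out 1 replicate at a time, where the lone sample left is assumed to vary like the other groups, gave 1.72 to 3.18 for Stra6, 1.58 to 2.92 for Flnc, 0.70 to 1.70 for Grem1 and 1.19 to 2.31 for Lgals7 from Lt to Ht. It gave 1.03 to 1.32 for Stra6, 1.02 to 1.28 for Flnc and 0.77 to 1.17 for Lgals7 from Mt to Ht. Lgals7 from CD11b+ to F4/80+ cells ran from -0.50 to 0.26, the latter without CD11b+_3.

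Numbers of genes called: from Lt to Ht 5480, 8297 with total-count scaling and 2786 to 5960 with a replicate left out; from Lt to Mt 0, 242 with DESeq2, 887 with no filter and 0 to 778; from Mt to Ht 2563, 3888 with no threshold on the fold change, 4360 with total-count scaling and 0 to 3549; from CD11b+ to F4/80+ cells 11, 300 with DESeq2, 6 with total-count scaling, 242 with no filter and 0 to 136.

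With the replicate number as a block, Grem1 from Lt to Ht (1.19) and Stra6 (1.23) and Lgals7 (1.07) from Mt to Ht were called, and 78 genes from CD11b+ to F4/80+ cells. Same-numbered samples deviated from their group means with correlations of -0.05 for Lt and Ht, 0.21, 0.43 and 0.31 for Lt with Mt3, Mt2 and Mt1, -0.15, -0.27 and -0.25 for Mt3, Mt2 and Mt1 with Ht, and -0.07, -0.12 and 0.01 for the sorted populations. The signs are mixed, and no source says that a number marks a shared animal or batch, so whether the numbers pair samples is not known. The index by library totals was 1.94% in place of 4.24% in L-con and 16.1% in place of 29.1% in Mt3.

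With 1 or 2 samples in each tissue group, few degrees of freedom limit every tissue test. At 17 to 103 counts, Grem1 in sorted cells is among the least precise values, as are all 4 genes in L-con (42 to 110 counts).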

Other observations

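Mc38 is a colon line, and genes of intestinal epithelium were therefore listed. Of 10 simple and intestinal epithelium markers tested, 1 was called higher from Lt to Ht and 5 lower (median -1.84), and with library totals 1 was higher and 1 lower (median -0.92). Over all genes 11.7% were called higher and 20.2% lower. The gene called higher was Cdh17, an intestinal cadherin (3.67, adjusted p = 0.0070), which had 0 CPM in con and 2.83 CPM in Ht. Cdx2, a transcription factor of intestinal identity, was at 0 CPM in con, Lt, Mt2, Ht and sorted cells, and Cdx1 was at 0.0187 CPM in Ht. Krt8, which hepatocytes also express, was the most abundant gene of the list in Ht_2, and went from 313 CPM in con to 107 in Ht.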
